A study of Mus musculus with 4 samples.

Results

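The mitochondrial ribosome is built from proteins that nuclear genes encode. Here 76 of these genes were followed through oocyte growth, in controls and under deletion of Dcaf13, the gene of a nucleolar protein. The genes were taken by symbol, as every Mrpl or Mrps symbol followed by a number in the table of 23235 symbols, without named pseudogenes. Mrpl symbols stand for large subunit proteins (47 genes) and Mrps symbols for small subunit proteins (29 genes). No measured value entered this choice. The study compared mouse oocytes of C57B6 background at 2 stages and 2 genotypes. Control mice were Dcaf13fl/fl, with floxed Dcaf13 alleles, and deletion mice were Dcaf13fl/fl;Gdf9-Cre, with the same floxed alleles plus Cre recombinase driven in oocytes by the Gdf9 promoter. Growing oocytes were taken at an age of about 14 days. For fully grown oocytes the age was about 23 days, and the mice had received 5 IU of PMSG, a gonadotropin that drives follicle growth, 48 h earlier; stage, age and hormone cannot be told apart. Each of the 4 groups held 1 library of 10 pooled oocytes, so no value below has an error, and every comparison is between 2 libraries. No test was run; a fit of stage and genotype as additive terms would have left 1 degree of freedom.

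Mitochondria keep a small genome that codes for core subunits of the respiratory chain and of ATP synthase, and their own ribosome translates these. Its rRNAs come from mitochondrial DNA, while all its proteins are made in the cytosol from nuclear genes and imported. Many of these proteins have bacterial homologues, and others are found only in mitochondria. Oocytes accumulate mitochondria in large numbers while they grow. By these classes, 48 of the 76 genes encode proteins with bacterial homologues and 27 encode mitochondria-specific ones. Mrps36 was kept under the symbol rule although its protein is now known as a component of the 2-oxoglutarate dehydrogenase complex, which structures do not place in the ribosome. Mrps30 and Mrps18a carry small subunit names but sit in the large subunit, and Mrps18a, Mrps18b and Mrps18c are 3 paralogues of bacterial S18.

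The genes are spread over 17 chromosomes, with at most 10 on 1 of them (chromosome 11), and some start close to a gene on the opposite strand. For 26 of 76 (34.2%) the start of a gene on the opposite strand lay within 1000 bases upstream, against 14.0% of 11805 genes measured at 1 FPKM or more, 15.1% of cytosolic ribosomal protein genes and 26.8% of nuclear respiratory chain and ATP synthase genes. FPKM is the number of fragments relative to transcript length and library size. Mrpl46 and Mrps11, which encode a large and a small subunit protein, start 41 bases apart. Mrpl43 starts 115 bases from Peo1, the gene of the mitochondrial DNA helicase Twinkle, and Mrpl47 starts 307 bases from Ndufb5, a complex I subunit gene.

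Promoters of the group were searched in RefSeq windows (GRCm38.p6, 250 bases before to 50 after each start), which were present for 67 of the 76 genes, as 73 windows. On either strand the letters CCGGAAG, the core bound by ETS factors such as GABP, occurred in 32.9% of these windows, against 8.86% of all 32851 windows and 17.3% of windows of genes at 1 FPKM or more. Cytosolic ribosomal protein windows held them in 34.2% and those of respiratory chain and ATP synthase genes in 22.9%. ATGGCGG, read by YY1, stood in 17.8% of the windows against 4.05% of all and 7.75% of those of measured genes, with 18.4% for cytosolic ribosomal protein genes and 15.7% for respiratory chain and ATP synthase genes. CGCATGC, the NRF1 core, stood in 10.96% against 3.58% and 6.43%, with 6.58% and 15.7% for the same gene groups. The GC box GGGCGG was less frequent than in windows of measured genes, in 52.1% against 60.3%. Nearer to those windows were CCAAT in 41.1% against 38.8%, the E-box CACGTG in 9.59% against 9.84% and TATAAA in 6.85% against 7.73%. These are matches of letters and not measured binding. The 250 bases before the start are given here for 4 genes that stood at opposite ends of the growth comparisons below, with matches in capitals. Mrps26 (chr2:130563507-130563756, plus strand), Mrpl20 (chr4:155802628-155802877, plus strand) and Mrpl43 (chr19:45006443-45006692, minus strand) were lower in fully grown oocytes, and Mrpl22 (chr11:58171414-58171663, plus strand) was higher. These coordinates are of GRCm38.p6; gene positions given later are of mm9.
Mrps26: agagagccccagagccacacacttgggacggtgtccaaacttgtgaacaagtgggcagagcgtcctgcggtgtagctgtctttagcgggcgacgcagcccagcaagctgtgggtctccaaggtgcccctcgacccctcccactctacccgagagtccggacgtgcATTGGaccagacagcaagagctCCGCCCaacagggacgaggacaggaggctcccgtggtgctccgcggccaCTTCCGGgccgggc
Mrpl20: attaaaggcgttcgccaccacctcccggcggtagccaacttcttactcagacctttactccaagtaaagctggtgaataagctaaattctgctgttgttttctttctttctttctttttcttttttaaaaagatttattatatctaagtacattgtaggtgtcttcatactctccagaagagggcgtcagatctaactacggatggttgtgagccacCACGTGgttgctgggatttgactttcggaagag
Mrpl43: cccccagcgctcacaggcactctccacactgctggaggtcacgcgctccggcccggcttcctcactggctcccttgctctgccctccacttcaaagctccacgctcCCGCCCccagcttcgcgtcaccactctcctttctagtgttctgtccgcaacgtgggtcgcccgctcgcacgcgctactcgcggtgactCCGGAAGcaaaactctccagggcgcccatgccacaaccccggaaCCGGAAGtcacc
Mrpl22: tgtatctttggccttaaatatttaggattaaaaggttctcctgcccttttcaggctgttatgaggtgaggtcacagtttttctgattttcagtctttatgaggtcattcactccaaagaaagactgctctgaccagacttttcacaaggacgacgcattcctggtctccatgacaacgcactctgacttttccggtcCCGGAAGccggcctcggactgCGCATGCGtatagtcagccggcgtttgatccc
The capitals mark, from left to right, a CCAAT match, a GC box and an ETS match in Mrps26, an E-box in Mrpl20, a GC box and a pair of ETS matches in Mrpl43, and in Mrpl22 an ETS match followed by NRF1 matches on both strands that overlap. The ETS letters therefore stood in genes of either direction. Over all genes with a window, the 24 with an ETS match had a median difference between fully grown and growing oocytes of 0.26 in controls and 0.24 under deletion (log2 of FPKM + 1), against 0.09 and 0.02 for the 43 without. This contrast was read off after 7 motifs had been compared in 4 comparisons, and was not tested.

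The values rest on a re-pairing of the deposited table. Its symbols ran in 1 sort order and its values fitted another, so symbols in byte order were set against the value rows in file order, which moves the 76 genes by 2 rows. In this neighbourhood the 20 Mrgpr genes, receptors of sensory neurons, reached at most 0.161 FPKM after re-pairing and 4.92 as deposited. The worth of a single read in 231 low genes of the surrounding rows correlated with transcript length at r = -0.46 at this pairing, against -0.16 at the next best shift. The order is an inference from the values. Libraries summed to between 649397 and 678437 FPKM, with relative depths from 1 to 1.13. The 18 oocyte markers were all detected, with medians per library from 1299 to 1860 FPKM. The 11 granulosa cell markers summed to 34.8, 17.8, 27.7 and 28.9 FPKM (growing control, growing deletion, fully grown control, fully grown deletion, the order used throughout), stroma markers to at most 1.53, endothelial markers to at most 20.8 and blood markers to at most 3.62 FPKM. The part of these other cells in the results was not tested. Dcaf13 stood at 96.1, 38.9, 160.2 and 64.0 FPKM, thus at 40.5% and 39.95% of control in the deletion libraries.

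All 76 genes were detected at 1 FPKM or more, and 73 of them stood at 5 FPKM or more in every library. Their summed level was 9083.3, 9948.4, 10212.5 and 10675.5 FPKM, which is 1.40%, 1.49%, 1.53% and 1.57% of each library. The median gene stood at 79.9, 93.8, 87.1 and 95.1 FPKM, against 9.02, 9.54, 8.12 and 8.35 over all 11806 measured genes. FPKM is a share of a library: fewer transcripts of these genes per oocyte and more transcripts of other genes cannot be told apart. Cytosolic ribosomal protein genes, at medians of 552, 655, 596 and 665 FPKM, lay well above.

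Transcripts for proteins of the same ribosome stood at very different levels. Mrpl34 had the highest mean, with 531, 652, 588 and 729 FPKM. It encodes bL34, a very small large subunit protein. Mrps36 followed with 547, 751, 561 and 617 FPKM, so the second gene in rank is the one whose protein is not a ribosome subunit. Mrpl14, which encodes uL14 at the interface between the subunits, stood at 449, 507, 552 and 619.9 FPKM. Mrps21 (bS21) stood at 464, 518, 549 and 552 FPKM, and Mrpl48 and Mrps33 completed the 6 highest. At the other end Mrpl19 (bL19) stood at 2.73, 2.53, 2.28 and 3.03 FPKM and Mrpl17 (bL17) at 5.50, 8.86, 4.42 and 3.91 FPKM. Mrpl41, Mrpl49, Mrpl15 and Mrpl11 were the next lowest by mean. The highest gene exceeded the lowest 200.4-fold in the growing control and 298-fold in the growing deletion library, while the quartiles differed 4.29-fold and 4.41-fold. The same quartile folds were 10.9 and 10.6 over all measured genes, 3.99 and 4.06 over genes with means between 10 and 600 FPKM, 3.75 and 3.37 for cytosolic ribosomal protein genes and 4.88 and 5.34 for respiratory chain and ATP synthase genes. Levels and transcript length ran against each other across the 76 genes (Spearman rho -0.50, all genes -0.23). FPKM is itself divided by transcript length, so such a relation is partly built into the measure. The points share the same 4 libraries, and genes are not independent replicates.

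**Figure D1:**
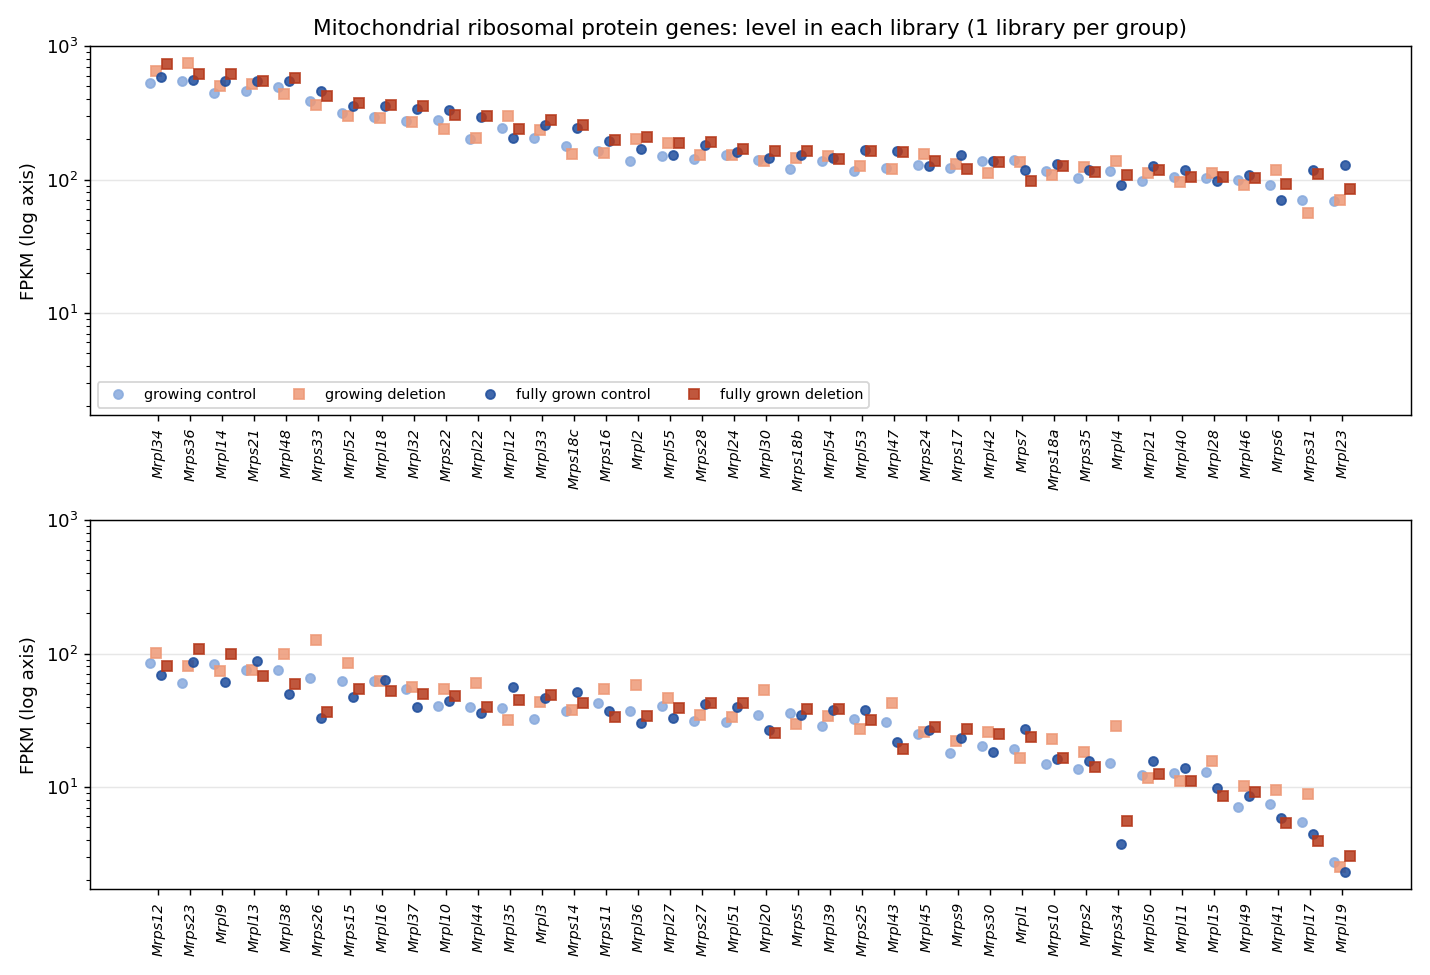
FPKM of each of the 76 genes (log axis) in the 4 libraries, ordered by mean level from Mrpl34 to Mrpl19. The 4 points of most genes lie close together, and those of Mrps34 spread most, from 3.74 to 28.7 FPKM.

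The order of the genes was nearly the same in every library, with Spearman rho between log levels from 0.94 to 0.99 over the 76 genes. The fold between a gene's highest and lowest library had a median of 1.38, was under 1.5 for 52 genes and under 2 for 70. It ran from 1.09 for Mrpl54 to 7.66 for Mrps34. Neither these correlations nor these folds were computed over other genes. The growing control library held the highest value of 1 gene and the lowest value of 28. Highest values were found for 28 genes in the growing deletion, 20 in the fully grown control and 27 in the fully grown deletion library. These counts were not taken over all genes, so they are not shown to be particular to the group. The 3 paralogues of S18 were all higher in the fully grown than in the growing library of either genotype, while their deletion differences had unlike signs: Mrps18a at 116, 109, 131 and 127 FPKM, Mrps18b at 120.2, 144, 153 and 163 FPKM, and Mrps18c at 179.6, 156, 243 and 256 FPKM.

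Oocyte growth in controls was read from the fully grown against the growing control library. Most genes of the group were slightly higher in the fully grown library, while most genes of the transcriptome were lower. In log2(FPKM + 1), 51 of 76 were above the growing library, against 39.3% of all measured genes, with a median difference of 0.15 against -0.10. Among the 5368 genes with a mean between 10 and 600 FPKM, which include 70 of the 76, 46.5% were above and the median was -0.03. Genes with Mrpl symbols had a median of 0.12 and those with Mrps symbols of 0.19, and the median was 0.13 for genes with bacterial homologues and 0.17 for mitochondria-specific ones. A difference of at least 1 on this scale, with 5 FPKM or more in 1 of the libraries, was met by 0 genes upward (1.11% of all genes that could) and by 1 downward, Mrps34 (3.07%). At a difference of 0.5, a second size, 7 were higher (5.13%) and 3 lower (14.1%).

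Mrpl23 (chromosome 7, plus strand, 149719022 to 149726647, mm9) encodes uL23 at the exit of the peptide tunnel and had the largest difference upward. Its values were 69.2, 70.6, 128 and 84.5 FPKM, a difference of 0.87 in controls and 0.26 under deletion, so the fully grown control library stands alone at the top. A named pseudogene, whose reads may be shared, exists for it. Mrps31 (chromosome 8, plus strand, 23521812 to 23540137) encodes a mitochondria-specific small subunit protein. It stood at 70.6, 56.3, 117 and 109.7 FPKM, so both fully grown libraries lay above both growing ones, with differences of 0.73 and 0.95. Mrpl22 encodes uL22, which also lines the tunnel exit, and its promoter is printed above. Its values of 200.8, 206, 293 and 300.07 FPKM differed by stage and hardly by genotype, with differences of 0.54 in controls and 0.54 under deletion. Mrpl35, Mrps23, Mrpl53 and Mrpl3 lay between 0.51 and 0.52 in controls.

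Mrps34 (chromosome 17, plus strand, 25032065 to 25033218) encodes a mitochondria-specific protein that the stability of the small subunit depends on. It stood at 15.1, 28.7, 3.74 and 5.56 FPKM. The fully grown libraries thus held 24.7% of the growing level in controls and 19.4% under deletion, differences of -1.77 and -2.18. It starts 32 bases from Eme2 on the opposite strand. Mrps26 (chromosome 2, plus strand, 130389493 to 130391130), another mitochondria-specific small subunit gene, stood at 65.6, 126, 32.7 and 36.6 FPKM. Both its growing libraries lay above both fully grown ones, with differences of -0.98 in controls and -1.75 under deletion. Mrpl38 stood at 75.9, 98.8, 49.6 and 59.4 FPKM, a difference of -0.60 in controls.

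Oocyte growth under deletion was read from the deletion libraries alone. Again more genes of the group were above than below, 44 of 76 against 41.3% of all measured genes, with a median of 0.11 against -0.11. Of genes with means between 10 and 600 FPKM, 48.0% were above, with a median of -0.02. By the size rule 0 were higher (2.70%) and 5 lower (8.75%). Mrps34 and Mrps26 led these 5 and were followed by 3 large subunit genes. Mrpl43 (chromosome 19, minus strand, 45079504 to 45080932), which encodes a mitochondria-specific protein, stood at 30.8, 42.4, 21.6 and 19.2 FPKM, a difference of -1.10. Mrpl20 (chromosome 4, plus strand, 155177727 to 155182938) encodes bL20, which in bacteria joins the large subunit early in assembly. It stood at 34.7, 53.6, 26.5 and 25.3 FPKM, a difference of -1.05. Mrpl17 (chromosome 7, minus strand, 112952296 to 112959601) encodes bL17 and had a difference of -1.01, just past the size used. In each of these 3 genes the growing deletion library was the highest of the 4, and the fully grown libraries were close to each other. At a difference of 0.5, 3 genes were higher (10.9%), namely Mrps31, Mrps18c (0.71) and Mrpl22, and 12 were lower (22.4%).

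**Figure D2:**
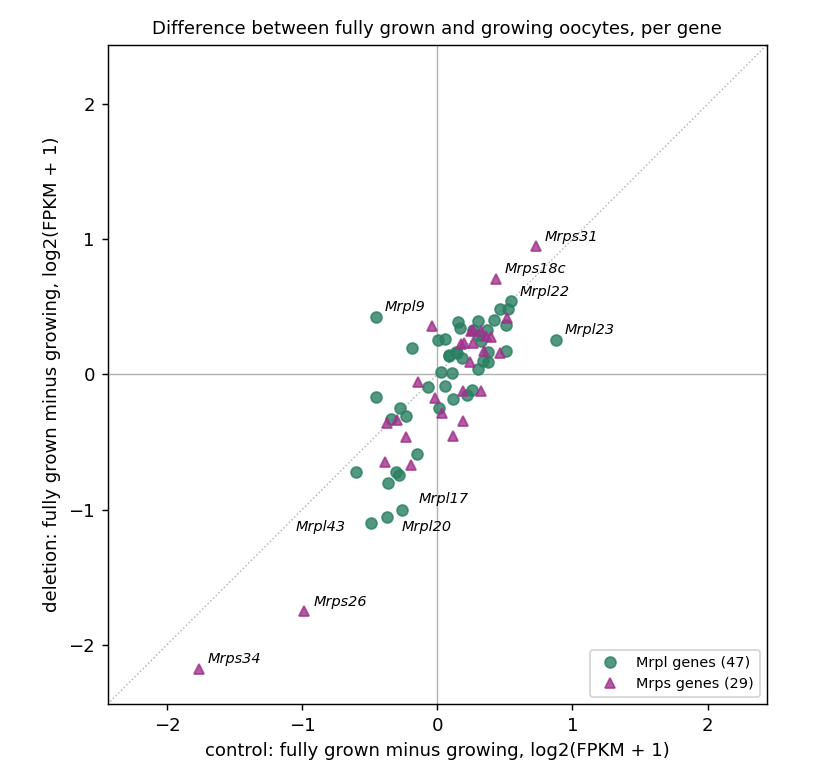
Difference between fully grown and growing oocytes in log2(FPKM + 1), in controls (x axis) and under deletion (y axis), 1 point per gene, with Mrpl and Mrps genes by symbol and the dotted line at equal differences. Most points lie in the upper right, and Mrps34 (-1.77 and -2.18) and Mrps26 (-0.98 and -1.75) stand apart at the lower left.

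The growth differences of the 2 genotypes share no library and followed each other across the 76 genes (Pearson r 0.84, Spearman rho 0.74, against 0.57 and 0.62 over all measured genes). Both were above 0 for 41 genes (53.9%, against 27.0% of all measured genes) and both below 0 for 22 (28.9%, against 46.2%). Transcript composition moved with these differences. The GC content of a gene's transcript and its growth difference had a rho of -0.37 in controls and -0.37 under deletion over the 76 genes, against -0.26 and -0.22 over all genes. Mrps26 has the highest GC content of the group (61.3%), Mrps34 has 60.6%, and Mrps31 has 44.2%. With the trend over GC content and length of all genes subtracted, the differences of Mrps34 were -1.56 in controls and -1.77 under deletion, and those of Mrps26 were -0.73 and -1.28. The trend has a constant term, so its subtraction also removes the overall shift between libraries.

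Deletion in growing oocytes was read from the growing deletion against the growing control library. No gene of the group differed by the size rule, and more lay above than below control. Above control were 50 of 76 genes, against 57.1% of all measured genes, with a median difference of 0.14 against 0.07. Of genes with means between 10 and 600 FPKM, 57.5% were above, with a median of 0.06. The size rule was met by 0 genes upward (2.62%) and by 0 downward (2.51%). The 29 genes with Mrps symbols had a median of 0.26 and the 47 with Mrpl symbols of 0.12; by place in the structure, the median was 0.21 for 26 small subunit genes and 0.12 for 49 large subunit genes. At a difference of 0.5, 8 genes were higher (13.5%) and 0 lower (8.79%). The 8 were Mrps26 (0.93), Mrps34 (0.88), Mrpl36 (0.62), Mrpl20 (0.62), Mrpl17 (0.60), Mrps10 (0.59), Mrpl44 (0.59) and Mrpl2 (0.54). Mrps26 stood at 192% of the control level and Mrps34 at 189.5%. Mrpl36, which encodes the very small zinc-binding protein bL36, stood at 37.1, 57.7, 30.3 and 34.0 FPKM. The 5 genes past the size rule in growth under deletion thus include 4 of these 8, and both comparisons use the same growing deletion library. At the lower end stood Mrps31 (-0.32), Mrpl42 (-0.30), Mrpl35 (-0.28), Mrps5 (-0.26), Mrps25 (-0.26) and Mrpl1 (-0.22).

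Deletion in fully grown oocytes gave differences closer to 0. Above control were 46 of 76 genes, against 53.3% of all measured genes, with a median of 0.07 against 0.03. Of genes with means between 10 and 600 FPKM, 56.3% were above, with a median of 0.04. The size rule was met by 0 genes upward (1.08%) and by 0 downward (1.09%), and a difference of 0.5 by 1 gene upward (9.19%) and 1 downward (6.97%). The gene above was Mrpl9 (chromosome 3, plus strand, 94247258 to 94252630), which encodes bL9, a protein that reaches out from the large subunit. It stood at 83.9, 73.5, 61.0 and 99.2 FPKM, a difference of 0.69 in fully grown and -0.19 in growing oocytes. The gene below was Mrpl23 at -0.59, with 66.2% of the control level. Mrps34 (0.47), Mrps30 (0.43), Mrps6 (0.39), Mrpl37 (0.33) and Mrps23 (0.31) followed upward. Mrpl13 (-0.37), Mrps17 (-0.34), Mrpl35 (-0.32), Mrpl50 (-0.30) and Mrpl11 (-0.28) followed downward. Mrps30, by place a large subunit gene, stood at 20.1, 25.8, 18.1 and 24.7 FPKM, higher with deletion at both stages. Mrps36 differed by 0.46 in growing and 0.14 in fully grown oocytes.

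**Figure D3:**
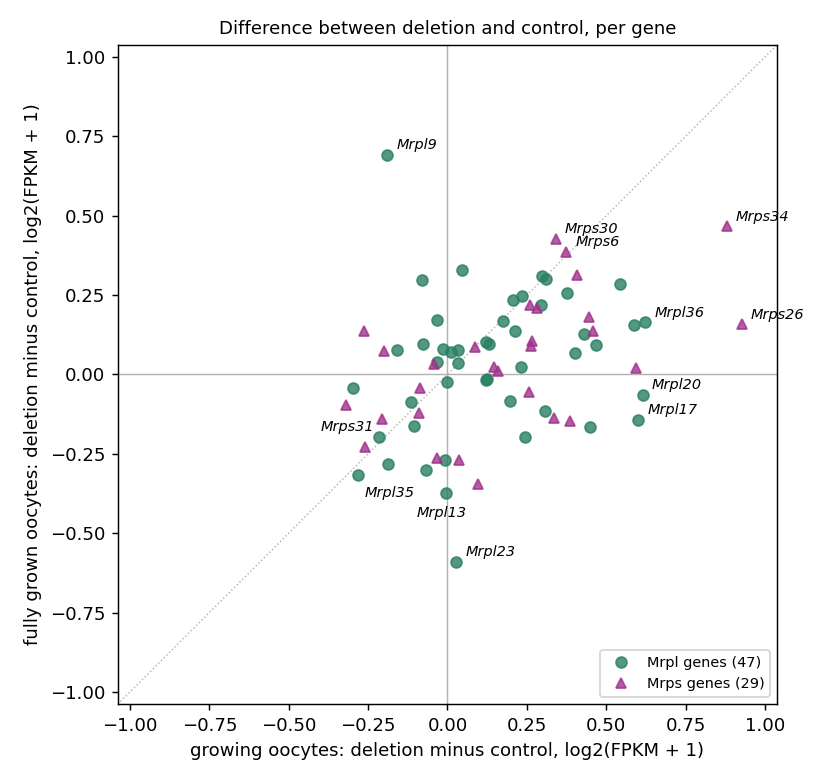
Difference between deletion and control in log2(FPKM + 1), in growing (x axis) and fully grown oocytes (y axis), 1 point per gene, with Mrpl and Mrps genes by symbol and the dotted line at equal differences. All points lie within 1 on both axes, Mrps26 (0.93) and Mrps34 (0.88) are farthest to the right, and Mrpl9 (0.69) and Mrpl23 (-0.59) lie at the top and the bottom.

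The deletion differences of the 2 stages, which share no library, had a Pearson r of 0.35 and a Spearman rho of 0.40 over the 76 genes, against 0.32 and 0.40 over all measured genes. Deletion was above control at both stages for 36 genes (47.4%, against 37.8% of all measured genes) and below at both for 16 (21.1%, against 27.0%). The difference was lower in fully grown than in growing oocytes for 50 of 76 genes, against 52.9% of all measured genes, with a median gap of -0.07 against -0.03. GC content moved with the deletion differences too, in the opposite sense to growth, with a rho of 0.38 in growing and 0.40 in fully grown oocytes (all genes 0.36 and 0.38). With the trend subtracted the median over the 76 genes was 0.04 in growing and 0.02 in fully grown oocytes (all genes 0.02 and 0.01), and Mrps26 and Mrps34 differed by 0.48 and 0.47 in growing oocytes. The constant term of the trend centres all genes, so these values do not measure an effect of GC content and length alone.

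The remaining 7 ribosome proteins of the mitochondrion, whose genes carry other symbols, had medians of 0.18 for growth in controls and 0.01 under deletion. For deletion these were 0.27 in growing and 0.09 in fully grown oocytes, and 0 of the 7 met the size rule in any of these comparisons. Gadd45gip1 (mL64) stood at 261, 252, 314 and 279.7 FPKM, and Chchd1 (mS37) at 163, 196, 185 and 202 FPKM. For genes that act around the ribosome the growth comparisons gave these values. The 26 genes of ribosome assembly and rRNA modification had medians of -0.25 in controls and -0.43 under deletion, and 0 and 4 of them were lower by the size rule. The 18 genes that charge mitochondrial tRNAs had medians of -0.32 and -0.61, and 0 and 1 were lower. The 15 translation factors had medians of -0.15 and -0.15 and 0 past the rule in either. The 23 genes of mitochondrial transcription, DNA and RNA processing had medians of -0.18 and -0.35, with 3 and 4 lower, and the 30 import and folding genes had 0.05 and -0.14, with 1 and 2 lower. No gene of these 5 lists was higher by the rule in any of the 4 comparisons. Over all genes that could meet it, 1.08% to 2.70% were higher. Lower were 3.07% in growth of controls and 8.75% in growth under deletion. In the order given, 20 and 21, 8 and 8, 12 and 13, 19 and 20, and 25 and 25 genes of the lists could meet it. Their median levels in the growing control were 11.1, 3.24, 16.8, 14.7 and 52.7 FPKM, against 79.9 for the 76 genes. With deletion the medians of these lists were 0.24, 0.34, 0.17, 0.21 and 0.15 in growing oocytes, against 0.14 for the 76 genes. In fully grown oocytes these were 0.06, -0.01, 0.13, 0.002 and 0.04, against 0.07.

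Some genes are named here after their values were seen. Eral1, a chaperone of the small subunit rRNA, stood at 10.6, 14.9, 5.24 and 4.82 FPKM, a growth difference of -0.89 in controls and -1.45 under deletion. Tfam, which packages mitochondrial DNA and starts its transcription, stood at 11.9, 11.9, 4.63 and 3.61 FPKM, differences of -1.19 and -1.49. Hsd17b10, a subunit of the mitochondrial RNase P, stood at 35.6, 55.6, 10.4 and 10.1 FPKM, differences of -1.68 and -2.35. All 3 were thus lower in the fully grown libraries, where the median ribosomal protein gene was higher. Other genes of their lists were higher there. In controls these were 5 of the 26 assembly genes and 7 of the 23 genes of transcription, DNA and RNA processing. Under deletion they were 7 and 4. Whether these lists differ from the ribosomal protein genes was not tested.

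The growth medians of the cytosolic ribosomal protein genes were 0.16 in controls and 0.13 under deletion, close to those of the 76 genes. Those of the nuclear respiratory chain and ATP synthase genes were 0.02 and 0.06. With deletion the cytosolic ribosomal protein genes had medians of 0.27 in growing and 0.24 in fully grown oocytes, 82 and 75 of 86 above control, and the respiratory genes 0.13 and 0.12. Genes of factors known to act at such promoters were expressed unevenly. Nrf1 stood at 40.7, 35.5, 38.4 and 34.1 FPKM and Gabpb1, which encodes the partner subunit of GABP, at 57.6, 59.1, 46.7 and 59.6 FPKM. A pair named after their values were seen was low: Gabpa, the gene of the DNA-binding subunit, stood at 1.51, 1.68, 0.57 and 0.39 FPKM and Yy1 at 5.45, 9.20, 2.19 and 3.45 FPKM.

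**Figure D4:**
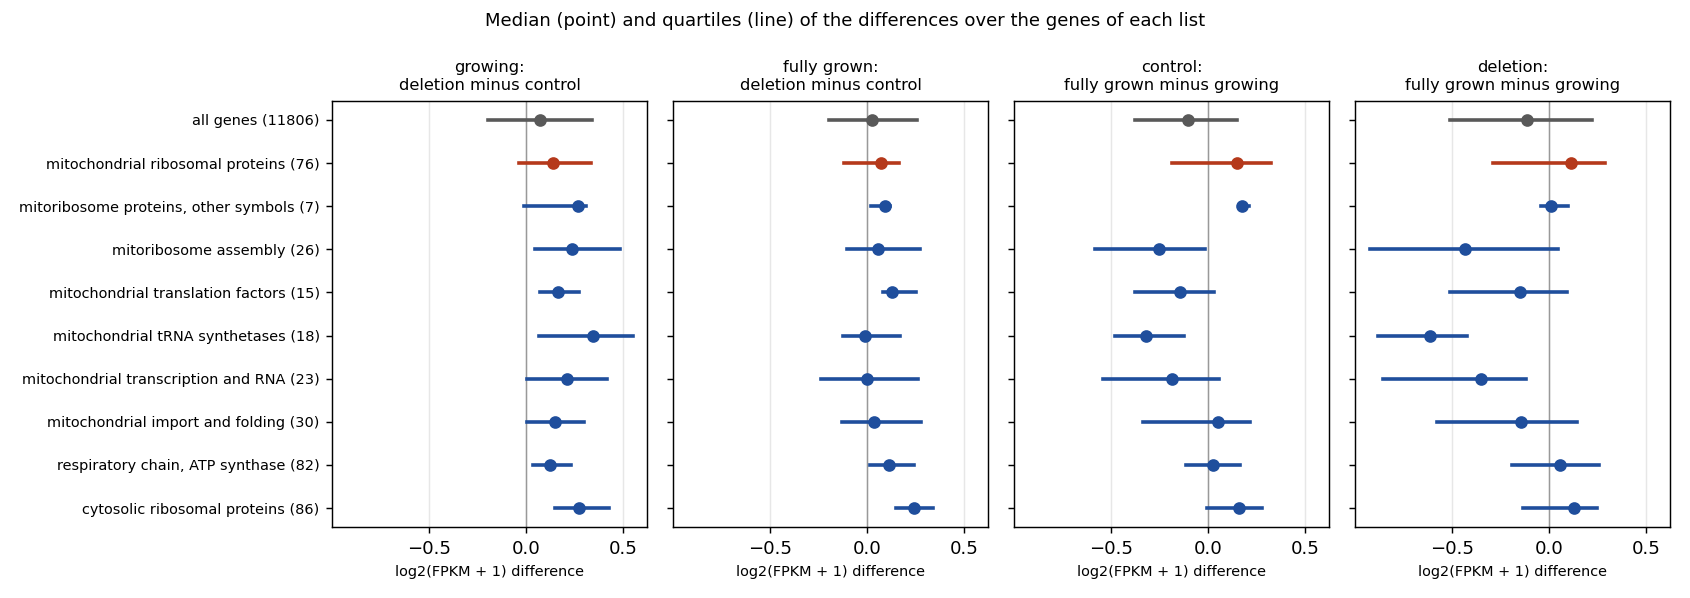
Median (point) and quartiles (line) of the differences in log2(FPKM + 1) over the measured genes of each list, with their number, in the 4 comparisons. The 76 genes are at 0.14, 0.07, 0.15 and 0.11 from left to right, and the tRNA synthetase genes are lowest in the rightmost panel at -0.61.

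Reads of 8 genes could be mixed with those of an overlapping gene, since the handling of strand is not given in the sources used here. Of the genes described above, Mrpl19 overlaps AW146020 (2.11, 1.86, 2.88 and 3.57 FPKM), about as high as Mrpl19 itself. Mrpl41 (7.46, 9.47, 5.86 and 5.34 FPKM) overlaps Wdr85 (8.69, 8.46, 11.9 and 10.5 FPKM), which was higher in 3 of the 4 libraries. Mrpl49 overlaps Syvn1 (30.7, 52.4, 31.4 and 35.7 FPKM), which was higher than Mrpl49. The neighbours that overlap Mrpl53, Mrps25 and Mrps6 stood at means of 0.315, 0.579 and 0.790 FPKM. Named pseudogenes exist for Mrpl23 (1), Mrpl27 (1), Mrpl48 (1) and Mrps36 (3), and their levels are uncertain to the extent that reads were shared.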

How the data were processed

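Polyadenylated RNA of 10 oocytes per library was amplified by Smart-seq2, a full-length protocol primed with oligo-dT, and fragmented with Tn5 transposase, per the labels' protocols. The authors deposited FPKM, 1 row per gene symbol. Tools in the submitters' processing notes are Cufflinks 2.2.1, TopHat2 2.0.11, Bowtie2 2.1.0 and CASAVA 1.8, with the build mm9. What each of them did, which gene models served and what was filtered is not given in the sources used here. Read depth is unknown beyond the ratios from the steps of low values. Symbols and values were re-paired, so that 4113 of 23235 rows kept their symbol. The 4 per-sample tables were identical to the series table.

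Differences were taken in log2(FPKM + 1), which understates those of low genes. A gene counted as measured at 1 FPKM in at least 1 library. The size rule required 5 FPKM in 1 of 2 libraries and a difference of 1. With 1 library per group no model was fitted. Genes named met the size rule, were among the 6 largest differences either way in a comparison, the 6 highest or lowest levels or the 4 largest stage differences among genes at 5 FPKM or more in all 4 libraries, or have a symbol at odds with their place. Mrpl2, Mrpl3, Mrpl44, Mrpl54 and Mrps2 were named after their values were seen, and Mrpl27, Mrpl46, Mrpl47 and Mrps11 for their position or pseudogenes. Genes and lists were chosen with earlier results of these data known. Transcript GC content and length came from GENCODE M21 by symbol, for all 76 genes. Motifs and differences were computed in Python 3.11.15 with pandas 2.3.3, and the steps were tested on simulated data. Alternatives were another pseudocount, other filters, rescaling, a GC and length trend, another size and the deposited pairing.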

Additional observations from a re-analysis of the deposited data

Results flagged for a closer look

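Among the 73 genes at 5 FPKM or more in every library, 6 were found in which the deletion or the growth difference had opposite signs in the 2 pairs of libraries, with a gap of more than 0.5 on the log2(FPKM + 1) scale. That size was chosen after values were seen. Mrpl17, left out by the level filter, had deletion differences of 0.60 and -0.14, a gap of -0.74. None of these differences was tested, since each rests on 4 single libraries. For Mrpl9 the deletion difference was -0.19 in growing and 0.69 in fully grown oocytes, and the growth difference -0.45 in controls and 0.43 under deletion, a gap of 0.88 in either reading. For Mrpl20 the deletion difference was 0.62 in growing and -0.06 in fully grown oocytes, a gap of -0.68. For Mrpl23 it was 0.03 and -0.59, a gap of -0.62. For Mrpl43 it was 0.45 and -0.17, a gap of -0.61. For Mrps2, the gene of uS2, it was 0.38 and -0.15, and its growth difference was 0.19 in controls and -0.34 under deletion, a gap of -0.53. For Mrps10 the growth difference was 0.11 in controls and -0.46 under deletion, a gap of -0.57.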

How the results depend on the processing

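No paired analysis was possible because each group holds 1 library, and for the same reason no library could be left out. Under rescaling by the median ratio, other filters on low values and the deposited pairing, every group count and median stayed within the margin set for it. The medians also kept their sign. For deletion in fully grown oocytes the margin of the median ran from -0.019 to 0.095, and for growth under deletion from -0.12 to 0.19. Medians close to no difference would thus have passed. Rescaling left 47.0% instead of 53.3% of all measured genes above control in fully grown oocytes, with a median of -0.03 instead of 0.03. The filters and the pairing could hardly change the group counts and medians. All 76 genes pass the filter at 1 FPKM, and a filter at 5 FPKM leaves out only Mrpl19. The deposited pairing shares 74 value rows of the group with the pairing used. With a pseudocount of 0.1, 2 genes instead of 1 were lower in growth of controls by the size rule. With the GC and length trend subtracted, the median for growth under deletion was 0.21 instead of 0.11 (over all genes 0.05 instead of -0.11) and 3 genes instead of 5 were lower. The overall shift between libraries is part of what is subtracted. At a size of 0.5 the counts were 8 higher in growing deletion, 1 higher and 1 lower in fully grown deletion, 7 higher and 3 lower in growth of controls, and 3 higher and 12 lower in growth under deletion. The size rule was met by 1 gene in growth of controls and by 5 in growth under deletion. Under the deposited pairing 5 of these differences changed sign, all but that of Mrps34 in growth under deletion. Mrps34 in growth of controls was 0.037, and in growth under deletion Mrpl17 was 0.19, Mrpl20 0.54, Mrpl43 0.13 and Mrps26 0.32. Another 27 named differences moved beyond the margin set for them, some of these with a change of sign. That pairing sets each symbol against the values of another row. Read depth is unknown, so the counting error of low values, such as those of Mrpl17, Mrpl19 and Mrps34 in fully grown oocytes, cannot be given.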
